A study of Caenorhabditis elegans with 2 samples.

Results

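The regions described here are 585 autosomal intergenic peaks of UNC-62 that were found in the pooled data and in both replicates of a chromatin immunoprecipitation and sequencing (ChIP-seq) experiment in Caenorhabditis elegans. They were selected on measured values, from 30000 peaks in the pooled list, of which 24146 were autosomal and 4475 of those were intergenic. A peak was kept if its pooled signal value was at least 14 and it overlapped by at least 1 bp a peak in the list of each replicate. Intergenic means that the summit lay inside no annotated gene of any kind and outside the stretch from 1000 bp upstream to 200 bp downstream of any protein-coding transcript start. Of the 4475 intergenic peaks, 1086 reached the signal threshold, 900 overlapped a peak in both replicates, and 585 met both conditions. That is 13.1%, beside 12.9% (3105 of 24146) for autosomal peaks of any annotation. Both shares follow from the selection and are given as a description. With overlap asked of replicate 2 alone there were 887 regions, and with a signal threshold of 20 there were 179.

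The study has 1 group, 2 biological replicates of whole L4 larvae, with no second condition. Per the labels, the animals were of mixed sex and of strain OP602, a transgenic line with a GFP-FLAG tag at the C terminus of UNC-62, and chromatin was sonicated. The antibody is labelled unc-62, and whether only the tagged protein was precipitated is not stated. UNC-62 was measured in all tissues together, and a region bound in few cells cannot be told apart from one bound weakly in many. Each deposited list gives a position, a summit and a signal value for each peak, made against a control that was not analysed here. The signal value is the authors' own and is used only to describe and rank peaks within a list. The list of replicate 1 held 15466 peaks and that of replicate 2 held 24524, so ranks in them are not on the same scale. The pooled list has a round total and holds weak background regions, so presence in it alone says little. Read depth is unknown. All positions are in ce11 (WBcel235), counted from 1.

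UNC-62 is the worm member of the Meis/Homothorax family, homeodomain proteins of the TALE class, which carry a short insertion in the homeodomain. Such proteins bind DNA with PBC partners (CEH-20 and CEH-40 in the worm) and with Hox proteins, and act in limb, muscle, neuron and vulva development across animals. TGACAG is the core sequence that Meis proteins bind in vitro, and TGATNNAT is a form of the composite site bound by PBC and Hox proteins together. Intergenic sequence in the compact worm genome holds enhancers, promoters of unannotated or small RNA genes, and gene ends.

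The sequences of 7 regions show what the summits look like. Each window is the 201 bases centred on the pooled summit, from the RefSeq WBcel235 genome, plus strand, 5′ to 3′. Capitals mark matches, on either strand, of the Meis core TGACAG, the Hox-PBC sequence TGATNNAT, the GA repeat GAGAGA or the CA repeat ACACAC, and overlapping matches run together. The regions beside clec-182 and ins-13 are shown because they had the highest pooled signals, and neither window holds any of these sequences. Those beside aakg-1 and cng-2 are shown for their repeats of GA, the region upstream of unc-62 because it lies beside the gene of the profiled protein, and those beside lpin-1 and deb-1 because both the Meis core and the Hox-PBC sequence occur in them.
clec-182 region, chrIV:8795183-8795383: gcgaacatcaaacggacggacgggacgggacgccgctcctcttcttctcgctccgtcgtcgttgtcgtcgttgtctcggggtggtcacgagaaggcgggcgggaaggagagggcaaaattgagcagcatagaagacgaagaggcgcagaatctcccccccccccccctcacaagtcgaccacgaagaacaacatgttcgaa
ins-13 region, chrII:5543631-5543831: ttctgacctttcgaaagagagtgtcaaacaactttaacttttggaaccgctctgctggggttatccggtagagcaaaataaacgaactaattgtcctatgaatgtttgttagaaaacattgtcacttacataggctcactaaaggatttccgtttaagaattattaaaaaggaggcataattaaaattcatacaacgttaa
aakg-1 region, chrIII:12583576-12583776: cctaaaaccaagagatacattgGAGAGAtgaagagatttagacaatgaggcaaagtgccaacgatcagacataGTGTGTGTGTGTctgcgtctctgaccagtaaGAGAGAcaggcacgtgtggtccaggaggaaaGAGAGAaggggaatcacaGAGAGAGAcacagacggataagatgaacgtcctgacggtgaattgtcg
cng-2 region, chrIV:2048973-2049173: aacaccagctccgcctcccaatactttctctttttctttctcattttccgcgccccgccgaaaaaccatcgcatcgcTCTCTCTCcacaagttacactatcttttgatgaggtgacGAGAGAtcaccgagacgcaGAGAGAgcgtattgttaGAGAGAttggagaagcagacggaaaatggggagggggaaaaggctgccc
unc-62 region, chrV:4489740-4489940: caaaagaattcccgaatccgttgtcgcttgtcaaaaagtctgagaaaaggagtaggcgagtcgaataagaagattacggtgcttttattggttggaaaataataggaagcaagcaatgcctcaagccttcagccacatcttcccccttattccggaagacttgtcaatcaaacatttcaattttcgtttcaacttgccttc
lpin-1 region, chrV:13656460-13656660: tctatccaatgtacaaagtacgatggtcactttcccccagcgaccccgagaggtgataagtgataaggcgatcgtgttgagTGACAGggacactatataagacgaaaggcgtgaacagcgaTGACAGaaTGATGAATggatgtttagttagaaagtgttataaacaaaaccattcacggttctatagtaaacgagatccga
deb-1 region, chrIV:7095568-7095768: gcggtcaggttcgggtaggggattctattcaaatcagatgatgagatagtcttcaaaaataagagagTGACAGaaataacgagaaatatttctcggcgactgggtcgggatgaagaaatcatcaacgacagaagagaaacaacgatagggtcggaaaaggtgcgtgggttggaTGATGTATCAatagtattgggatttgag
The lpin-1 window holds TGACAG at 2 places, the second of them 2 bases ahead of a TGATNNAT match. In the deb-1 window, 1 TGACAG and 2 overlapping TGATNNAT matches lie apart from each other. The aakg-1 window holds 5 GAGAGA and 4 ACACAC matches, with overlapping ones counted separately.

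The pooled signal values of the 585 regions ran from 14.02 to 66.3 with a median of 17.5, and regions are numbered here from the highest down. The quartiles were 15.7 and 20.9. Just inside the threshold were regions beside fbxa-36 on III at 14.02, F58F12.12 on II at 14.05 and him-8 on IV at 14.05. Just outside it were intergenic peaks found in both replicates beside acdh-6 at 13.998, fbxa-50 at 13.98 and ZK185.5 at 13.98. No gap in the values separated the sides. Signals in single replicates had medians of 9.09 in replicate 1 and 8.33 in replicate 2, on scales set separately for each list.

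The region of highest signal lay on chromosome IV from 8795095 to 8795470, between C33D9.3 and clec-182, a C-type lectin gene. Its pooled signal value was 66.3, and it ranked 19 in replicate 1 and 10 in replicate 2, with signals of 24.5 and 38.6 there. Its summit was 2375 bp upstream of the nearest protein-coding start, that of C33D9.3. The window was rich in GC, at 60.2%, and the replicate summits were 13 bp apart. The rank of 10 was the best of any of the 585 regions in replicate 2.

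The second region, on chromosome II from 5543543 to 5543918, had nearly the same pooled signal of 66.3. It ranked 6 in replicate 1, the best rank there of any of the 585, and 16 in replicate 2. Its signals were 33.2 in replicate 1 and 34.5 in replicate 2. The nearest coding gene was ins-13, which encodes an insulin-like peptide, with its start 1133 bp away. The gene closest to the summit was sls-2.2, at 24 bp, with sls-2.3 at 433 bp. These are SL2 RNA genes, which supply the leader that is trans-spliced onto downstream genes of operons. GC content there was 34.3%, below the median of all 585.

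The third region had pooled signal 53.8 but differed between the replicates. It lay on chromosome III from 12583488 to 12583863, in a gap of 20592 bp between aakg-1, which encodes a regulatory subunit of AMP-activated protein kinase, and gldi-8. Its rank was 3009 in replicate 1, with a signal of 10.1, and 12 in replicate 2, with a signal of 37.7. The summits of the replicates were 2 bp apart. The fourth, beside sup-26, a gene for an RNA-binding protein, had pooled signal 46.4 and ranked 9 and 14 in replicates 1 and 2. Region 15, of signal 32.4, overlaps it and rests on the same peak in each replicate, so these are not separate observations.

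Regions 5 to 14 had pooled signals of 32.7 to 46.4, and 8 of the 10 ranked in the top 500 of each replicate. Region 5, between F54F12.1 and Y39E4B.6, had pooled signal 46.4 and ranks of 30 in replicate 1 and 110 in replicate 2. Region 6, beside cng-2, which encodes a cyclic nucleotide-gated channel subunit, had signal 44.5 and ranks of 34 and 74. Region 7, between exc-15 and unc-62, had signal 42.7 and ranks of 60 and 52. Its nearest coding start was that of exc-15 at 6381 bp, and it lay 7621 bp upstream of the first unc-62 start. Region 8 lay in a gap of only 322 bp between the ends of the chemoreceptor gene str-56 and the nuclear receptor gene nhr-102, with signal 41.2 and ranks of 44 and 117. Region 9, between F58D5.7 and F58D5.5, had signal 39.1 and ranks of 108 and 78. Region 10, beside dpy-19, had signal 36.0 and ranks of 442 and 91, and dpy-19 encodes a C-mannosyltransferase needed for neuroblast migration. Regions 11 and 14 shared the gap between ret-1, a reticulon gene, and the neuropeptide receptor gene npr-13, with signals of 35.2 and 32.7. Region 12, between T23G4.2 and T23G4.127, had signal 34.5, ranks of 113 and 243 and replicate summits at the same base. Region 13, between drn-1 and the phosphoethanolamine methyltransferase gene pmt-1, had signal 33.6 and ranks of 78 and 260.

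These 14 strongest regions were also the 14 of the 585 found in the deposited list of peaks that passed an irreproducible discovery rate (IDR) threshold. That is 2.39% (95% exact Clopper-Pearson interval 1.31 to 3.98), beside 2.61% (81 of 3105) of reproducible autosomal peaks of any annotation. The share was 3.88% (43 of 1109) in reproducible promoter peaks, 2.73% (17 of 622) in introns and 0.708% (5 of 706) in exons. For intergenic peaks on the X chromosome chosen in the same way it was 8.18% (18 of 220). With a signal threshold of 20 the share was 7.82%. IDR values derive from the same signals as the selection, so the counts are a description. Intervals on shares cover counting error over peaks only.

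Regions 16 to 26 had pooled signals of 30.02 to 32.2 and lay beside genes of varied function. Region 16, between R06C1.4 and R06C1.6, had signal 32.2 and ranks of 128 and 617. Others lay beside par-6, a cell polarity gene, with region 18 at 32.02, and egl-27, which encodes an MTA-like protein of nucleosome remodelling complexes, with region 19 at 32.01. Region 20 lay beside mtm-3, a myotubularin gene, at 31.4, and region 21 between atgp-2 and unc-52, the perlecan of muscle attachment, at 31.4. Region 22, between idpb-4 and mak-1, had signal 30.4 and ranks of 211 and 385. Region 23 lay beside the aquaporin gene aqp-2 at 30.3, and region 25 beside the T-box gene tbx-9 at 30.04. Region 26 lay between the cuticle collagen genes col-13 and col-12 at 30.02, with ranks of 218 in replicate 1 and 434 in replicate 2. Ranks were less even in region 21 (4059 and 81) and in region 24, beside ddx-23 (9895 and 69). Both of these ranked far better in replicate 2.

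**Figure D1:**
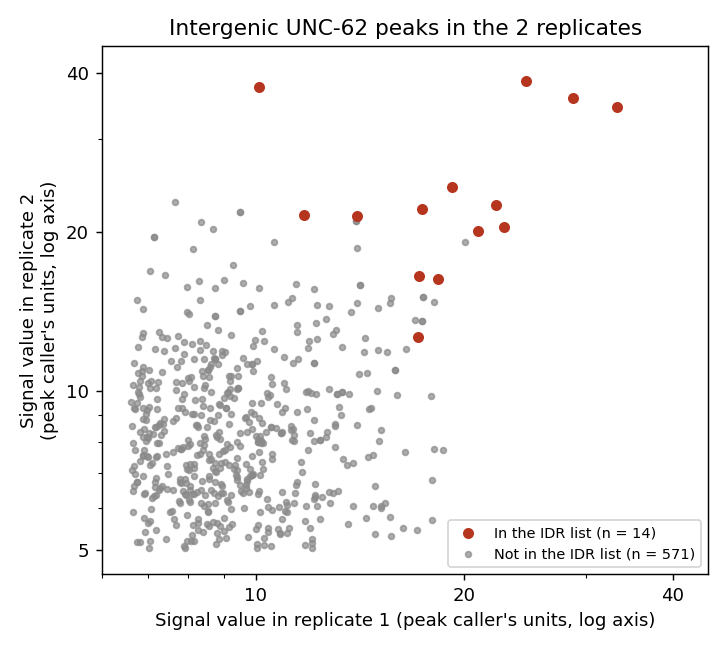
Signal value in replicate 1 (x axis) against replicate 2 (y axis), in the peak caller's units on log axes, for the 585 intergenic regions, each point 1 region. Red points are the 14 regions in the IDR list and grey points the other 571. Most red points lie to the upper right. The red point of the region beside aakg-1 lies to the upper left, with a far higher signal in replicate 2. The grey points form a cloud with little slope.

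Across all 585 regions the order of signals in replicate 1 said little about that in replicate 2. Spearman's rho between the replicate signals was 0.126 (n = 585), beside 0.103 over reproducible promoter peaks (n = 1109) and 0.105 over weaker intergenic peaks, those found in both replicates with a pooled signal under 14 (n = 315). Over X intergenic peaks it was 0.229 (n = 220). Over the regions of signal 20 or more it was -0.0449 (n = 179), so even its sign depended on the threshold, and Pearson's r of log2 signals over all 585 was 0.29. The points share the selection on pooled signal, the control and, for neighbouring peaks, the same replicate peak, and the 585 regions rest on 555 distinct peaks of replicate 1 and 557 of replicate 2. Selecting on pooled signal, to which both replicates contribute, itself limits how such points can be arranged.

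Of the 585 regions, 39 were among the top 1000 peaks of both replicates, with a median pooled signal of 30.02. That is 6.67% (4.78 to 9.001), beside 4.99% (155 of 3105) of reproducible autosomal peaks of any annotation and 6.49% of promoter peaks. Another 62 were in the top 1000 of replicate 1 only (median 21.3) and 52 in that of replicate 2 only (median 23.4). The remaining 432, or 73.8%, were in neither, with a median of 16.7. In 40 regions a top 1000 rank in replicate 1 stood beside a rank beyond 5000 in replicate 2, and in 28 regions the reverse held. With 15466 peaks listed for replicate 1 and 24524 for replicate 2, a rank beyond 5000 does not mean the same in each. Region 140, between nhr-31 and nhr-258, ranked 159 in replicate 1 and 20144 in replicate 2.

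The replicate summits lay close together in many regions. Their median distance was 69 bp in the 585 regions, against 190 bp in the 315 weaker intergenic peaks. It was within 50 bp in 240 of 585 regions (41.0%, 37.01 to 45.1) and in 55 of the 315 weaker peaks. The values were close to those of reproducible peaks elsewhere, with a median of 74 bp and 40.3% within 50 bp over all 3105 autosomal ones, and 73 bp and 38.8% in promoters. By pooled signal the median distance was 124 bp from 14 to 16, 59.5 bp from 16 to 20, 53 bp from 20 to 30 and 38 bp at 30 and above, over 180, 226, 153 and 26 regions. The median distance was thus smaller at each step up in signal, a description over sites and not a test. Both replicates contribute to the pooled signal, so it is not independent of how close their summits lie. Neighbouring pooled peaks can also rest on the same replicate peaks.

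The 5 autosomes held similar densities of regions, with 106 on I, 116 on II, 107 on III, 122 on IV and 134 on V, or 6.40 to 7.76 per Mb. The middle stretch of a chromosome, from 0.333 to 0.667 of its length, held 50.8% of the 585 (46.6 to 54.9), against 40.4% of all 4475 intergenic peaks, a set that includes the 585, and 44.1% of the weaker ones. In reproducible promoter peaks the share was 50.2%. No difference between shares of peak sets was tested.

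By construction no region lay just upstream of a coding start, and few were remote. The nearest protein-coding start was a median of 2431 bp away, with a range of 373 to 16226 bp, against a median of 2458 bp for all autosomal intergenic peaks. A start more than 5000 bp away was found for 89 regions (15.2%, 12.4 to 18.4), against 17.0% of all intergenic peaks. The farthest was region 47 on chromosome I, 16226 bp from the start of Y23H5B.5 and 49 bp from the snoRNA gene Y23H5B.10, with signal 26.3. Region 32 on III lay 11573 bp from the start of K01F9.2 and 188 bp from the microRNA gene mir-80, with signal 28.3. Region 111 on II lay 11559 bp from the start of snt-1, with signal 22.1.

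**Figure D2:**
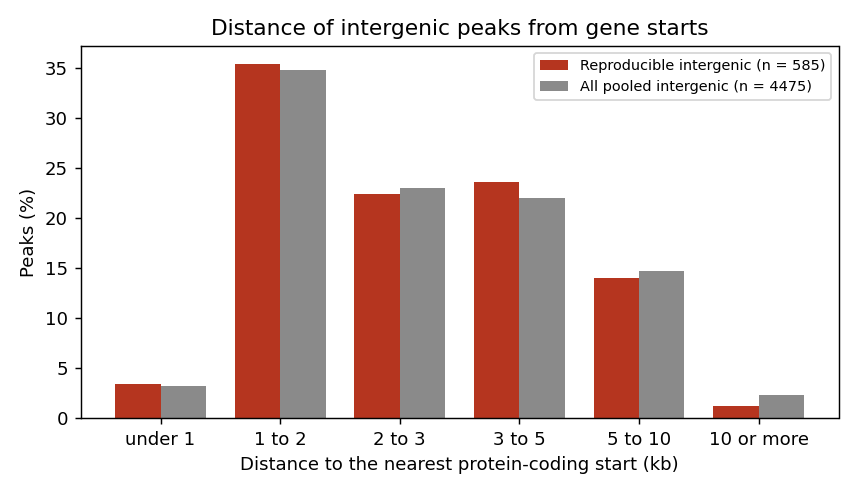
Share of peaks (%, y axis) by distance of the summit to the nearest protein-coding start in kb (x axis), for the 585 reproducible intergenic regions (red) and all 4475 autosomal intergenic peaks (grey), which include them. The bars of the sets have nearly the same heights in each bin, with 35.4% of the 585 and 34.7% of all between 1 and 2 kb.

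The coding genes to either side lay on the same strand in 350 of the 585 regions (59.8%, 55.7 to 63.8), against 55.6% of all intergenic peaks. They faced away from each other in 175 (29.9%), against 30.9%. Between genes that end towards each other lay 59 regions (10.1%, 7.77 to 12.8), against 13.5% of all intergenic peaks and 10.8% of the weaker ones. Regions 8, 24, 25 and 32 are of that kind. An end of a coding gene lay within 1000 bp of the summit in 158 regions (27.01%), against 27.8% of all.

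Some members of the set lay near each other, a count that was not made for other sets of peaks and so has no comparison. With a limit of 5000 bp between neighbours, 178 of the 585 (30.4%) formed 78 clusters, and 76 of these stayed within 1 gap between coding genes. There were 62 pairs, 12 clusters of 3, 3 of 4 and 1 of 6. Over all, the 585 lay in 474 gaps, 67 of which held 2 and 18 held 3 or more. Peaks had a fixed width of 376 bp, and 60 regions (10.3%) overlapped another of the set, so some neighbours may be parts of 1 site.

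The gap upstream of egl-27 held the most regions. It spans 18574 bp between snt-1, a synaptotagmin gene, and egl-27 on chromosome II. The 6 regions had pooled signals of 25.2, 22.1, 23.3, 22.8, 32.01 and 14.9 at 14436, 12481, 10533, 8014, 3293 and 1914 bp upstream of the first egl-27 start. The strongest, at 3293 bp, ranked 274 in replicate 1 and 478 in replicate 2. The one at 8014 bp ranked 154 in replicate 1 and 8100 in replicate 2. A peak of signal 41.3, higher than any of the 6, lay among them at 11605 bp, inside an annotated non-coding gene, so it does not count as intergenic. A peak of signal 25.3 at 7481 bp ranked 75 in replicate 2 and had no peak in replicate 1.

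The gap upstream of unc-62 itself held 3 regions, on chromosome V between exc-15 and unc-62. At 7621 bp upstream of the first unc-62 start the signal was 42.7, at 4499 bp it was 23.5 and at 2259 bp it was 29.2. The ranks were 60 in replicate 1 and 52 in replicate 2 for the farthest, 14899 and 7968 for the middle one, and 152 and 1166 for the nearest. The outer pair thus ranked ahead of the middle one in each replicate. At 6574 and 5949 bp lay peaks of signal 18.7 with no peak in replicate 1, whose list is the shorter. The strain is transgenic for tagged UNC-62 and the control was not analysed here. Whether the transgene affects the signal in this gap was not tested.

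**Figure D3:**
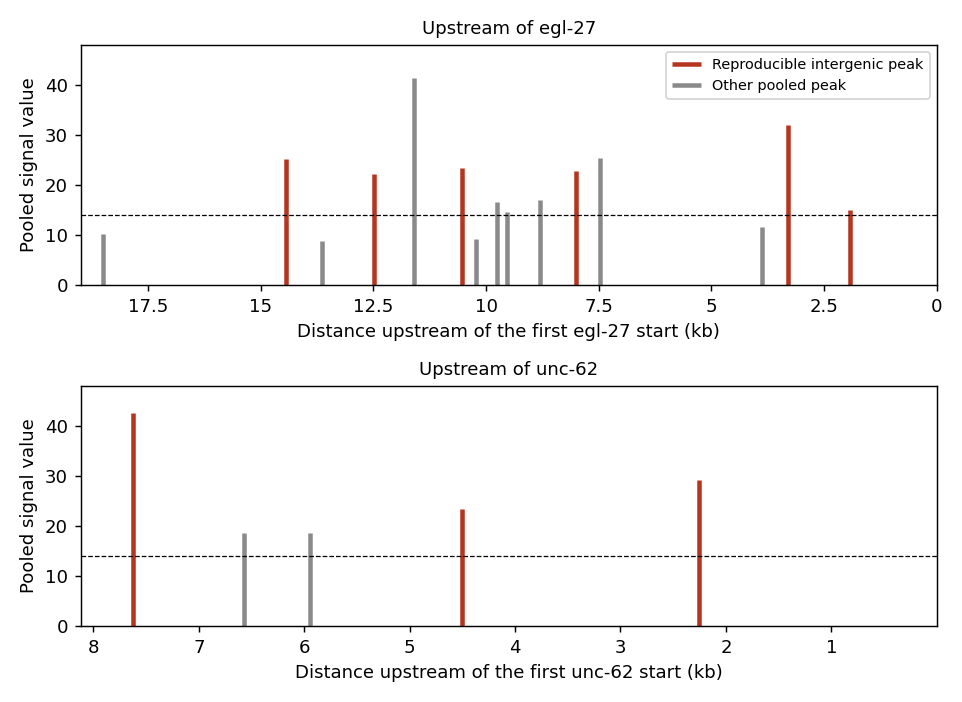
Pooled signal value (y axis) of every peak in the list between snt-1 and egl-27 (upper panel) and between exc-15 and unc-62 (lower panel), by distance upstream of the first egl-27 or unc-62 start in kb (x axis). Red lines are reproducible intergenic regions, 6 above and 3 below, grey lines are other pooled peaks, and the dashed line is the threshold of 14.

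Another 4 gaps held 4 regions each. Between lin-29, a zinc finger gene of the larval-to-adult switch, and W03C9.8 they had signals of 18.8, 15.9, 16.9 and 15.3 at 2157, 5670, 8336 and 9655 bp from the lin-29 start. Beside bli-4, a proprotein convertase gene, the signals of 4 regions were 17.95, 17.2, 14.9 and 14.9, with 1 pair resting on the same replicate peaks. Between W06H8.6 and K08B12.3 on V they were 24.3, 21.5, 19.8 and 19.4. Between F54F12.1 and Y39E4B.6 on III they were 46.4, 22.9, 18.3 and 14.3, and the last pair, with summits 202 bp apart, overlap. The gap between lpin-1, a lipin gene, and letm-1 held 3, among them region 17 with its matches of the Meis core.

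Flanking genes were counted against lists of genes given by name. Of the Hox genes, 3 flanked a region. Region 205, of signal 19.1, lay 93 bp beyond the end of ceh-13 (anterior Hox gene) and ranked 14397 in replicate 1 and 1131 in replicate 2. Region 330, of signal 17.0, lay in the gap of 18964 bp between cyk-7 and egl-5 (posterior Hox gene) and ranked 7084 and 7199. Region 573, of signal 14.1, lay 2124 bp upstream of mab-5 (Hox gene of the posterior body) and ranked 8676 and 4237. None of the 3 was among the top 1000 peaks of either replicate. Hox genes flanked 0.513% of the 585 regions and 0.536% of all intergenic peaks. The TALE genes gave 0.513%, against 0.134%, with all 3 regions from the gap beside unc-62, the gene of the tagged protein.

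Nuclear receptor genes flanked the most regions of any transcription factor list, 31 of 585 (5.30%, 3.63 to 7.44). They also led these lists among all intergenic peaks, where their share, 4.56%, lay inside that interval. The 31 regions lay beside 22 such genes, among them nhr-23 (a receptor needed for moulting), nhr-85 and unc-55. Regions 56 and 131, both beside nhr-204, overlap and have the same rank in each replicate, so they are not separate observations. The strongest were beside nhr-102 at 41.2, nhr-204 at 25.5, nhr-34 at 23.8 and nhr-31 at 21.1. Other homeobox genes, a list by name that holds ceh-13 again, flanked 6 regions (1.03% against 1.61%), the strongest beside nsy-7 at 24.1 and ceh-23 at 20.9. The list of other transcription factors gave 14 (2.39% against 2.88%), of which 6 came from the gap upstream of egl-27. The strongest regions of this list were beside egl-27, tbx-9, hlh-10 and dmd-6. Wnt pathway genes flanked 1 region (0.171% against 0.447%), beside mom-5, a Frizzled receptor gene, at 15.8.

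Cuticle genes flanked 15 regions (2.56% against 2.01%), a list taken by gene name that also holds dpy-19. The strongest collagen genes there were col-13 and col-12 at 30.02, col-83 at 28.9, col-139 at 27.9 and sqt-3 at 23.7. Insulin-like genes, a list that also holds the receptor gene daf-2, flanked 5 (0.855% against 0.693%), the strongest beside ins-13 at 66.3, ins-8 at 23.8 and ins-33 at 21.1. The region beside daf-2 had signal 16.2. Neuropeptide genes flanked 7 (1.197% against 1.83%), with nlp-40 at 27.3 the strongest. Chemoreceptor genes flanked 22 (3.76%, 2.37 to 5.64), against 6.68% of all intergenic peaks. F-box, MATH and BTB genes flanked 3 (0.513%), against 1.79% of all.

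The remaining lists gave small counts. C-type lectin genes flanked 5 regions (0.855% against 1.23%), led by clec-182 at 66.3 and clec-180 at 28.2. Axon guidance genes flanked 7 (1.197% against 1.14%), with zig-9 at 23.2 the strongest, and ribosomal protein genes 4 (0.684% against 0.514%), with rpl-21 at 21.3. Sperm and small secreted protein genes flanked 2 (0.342% against 0.402%) and histone genes 1 (0.171% against 0.0894%).

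Small RNA genes lay within 500 bp of some strong regions. A snoRNA gene was that close to 13 regions (2.22%, 1.19 to 3.77), against 0.693% of all intergenic peaks and 0.635% of the weaker ones. The share was 1.64% in all reproducible autosomal peaks, 1.89% in promoter peaks and 1.77% in intron peaks, values inside the interval of the 585. The strongest were region 8 at 41.2, region 33 at 28.2, region 46 at 26.3 and region 47 at 26.3. A microRNA gene was that close to 7 (1.197%, 0.482 to 2.45), against 0.559% of all intergenic peaks and 0.386% (12 of 3105) of all reproducible autosomal peaks. They were mir-80 at 28.3, mir-241 at 25.8, mir-8209 at 25.8, mir-8198 at 20.6, mir-52 at 20.02, mir-5547 and mir-45, both at 19.3. Of these, mir-241 is a let-7 family microRNA that acts in larval timing, and its region, 102 bp away, ranked 1495 in replicate 1 and 689 in replicate 2. The region near mir-80 ranked 515 in both. Transfer RNA genes were close to 6 (1.03% against 0.559% of all intergenic and 0.966% of all reproducible autosomal peaks), with signals no higher than 22.9. Piwi-interacting RNA genes were close to 47 (8.03%, 5.96 to 10.5), against 11.0% of all intergenic and 5.09% of all reproducible autosomal peaks.

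The windows were richer in GC than those of other intergenic peaks, by their medians. The median GC content of the 201 bp windows was 36.8% in the 585 regions, against 34.3% both in all intergenic peaks and in the weaker ones. It was 37.3% in reproducible promoter peaks. By pooled signal the median was 35.8% from 14 to 16, 35.1% from 16 to 20, 38.8% from 20 to 30 and 42.8% at 30 and above. Sequence soft-masked as repeat in the reference made up a median of 26.4% of the window in the 585 and 31.3% in all. Windows with 50% or more masked were 14.5% of the 585 (85, 11.8 to 17.6), against 21.7% of all intergenic peaks, 22.9% of the weaker ones and 10.8% of all reproducible autosomal peaks.

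The Meis core TGACAG occurred in 45 of the 585 windows, or 7.69% (5.67 to 10.2). All intergenic peaks had it in 8.11% (363 of 4475), weaker ones in 8.57% and reproducible promoter peaks in 7.66%, each within the interval of the 585. Intergenic peaks that reached the signal threshold but lacked a peak in a replicate had it in 11.8% (59 of 501, 9.09 to 14.9), above that interval, and X intergenic peaks in 10% (22 of 220, 6.37 to 14.7). Its density was 0.684 per kb from 0 to 25 bp of the summit, on 20 matches. That was the highest of the 20 bins of 25 bp out to 500 bp. Close to it were 0.615 per kb from 175 to 200 bp and from 425 to 450 bp, on 18 matches each. From 75 to 100 bp the density was 0.239 per kb, as low as in any bin. In the bin nearest the summit, promoter peaks had 0.559 and all intergenic peaks 0.487 per kb. Over the first 100 bp together the 585 had 0.462 per kb, and the same from 300 to 500 bp. By pooled signal the share was 6.11%, 7.08%, 9.804% and 11.5% in the 4 ranges from 14 to above 30, on 11, 16, 15 and 3 windows, too few to order. TGATNNAT occurred in 108 windows (18.5%, 15.4 to 21.8), against 16.2% of all intergenic peaks. Its density was 1.06 per kb over the first 100 bp and 0.897 from 300 to 500 bp. Other sets had a similar fall, from 0.956 to 0.861 in all intergenic peaks and from 0.965 to 0.884 in promoter peaks.

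Both sequences occurred together in 13 windows (2.22%, 1.19 to 3.77), against 1.30% (58 of 4475) of all intergenic peaks and 1.62% of promoter peaks. The strongest was region 17 beside lpin-1 at 32.02, with ranks of 105 and 365. Next came region 57 beside deb-1, the vinculin gene, at 25.4, with ranks of 335 and 3980. Region 110 beside F17C11.26 had signal 22.1, region 134 beside the zinc finger gene somi-1 21.2, region 163 beside F58D5.5 20.6 and region 168 beside ZC190.5 20.5. The other 7 had signals of 14.05 to 18.2. Of these, region 374 beside nlp-80 and T04C12.8, at 16.3, and region 428 beside magi-1, at 15.8, held TGACAG at 2 places.

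The repeat GAGAGA was the most common of the 4 sequences shown, in 150 windows (25.6%, 22.1 to 29.4). It occurred in 15.9% of all intergenic peaks, 20.6% of weaker ones, 19.96% of those above the threshold that lacked a peak in a replicate, 22.2% of reproducible promoter peaks and 20.3% of all reproducible autosomal peaks. Densities were 2.95 per kb within 100 bp of the summit and 1.25 from 300 to 500 bp in the 585 regions, against 1.63 and 0.974 in all intergenic peaks. By pooled signal the share was 17.8% from 14 to 16, 25.2% from 16 to 20, 35.3% from 20 to 30 and 26.9% at 30 and above. At least 3 matches occurred in 39 windows (6.67%), against 3.28% of all. The largest count, 18, was in region 570 between cpf-2 and unc-64, the syntaxin gene, whose signal was only 14.2.

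GAGAGA holds G at every other base, and its share was higher at higher GC content in each set. Below 32% GC it occurred in 7.28% of the 585 and 6.14% of all intergenic peaks, and from 32 to 37% in 16.7% against 13.1%. From 37 to 42% the shares were 31.2% and 23.2%, and at 42% and above 51.5% (69 of 134) and 35.4% (231 of 653). The weaker intergenic peaks had 5.98%, 26.7%, 27.9% and 34.5% in the same ranges. The share was higher in the 585 than in all intergenic peaks, which include them, in each range of GC, and in 3 of 4 than in the weaker ones. The lowest range rests on 11 of 151 windows of the 585 and 7 of 117 weaker ones. Whether base composition accounts for these shares was not tested. ACACAC occurred in 89 windows (15.2%, 12.4 to 18.4), against 10.5% of all intergenic peaks, 13.7% of weaker ones, 11.4% of those above the threshold that lacked a replicate peak and 12.5% of promoter peaks. GAGAGA or ACACAC occurred in 35.4% of windows against 23.6% of all, and 49.9% of windows, 292 of 585, held none of the 4 sequences.

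**Figure D4:**
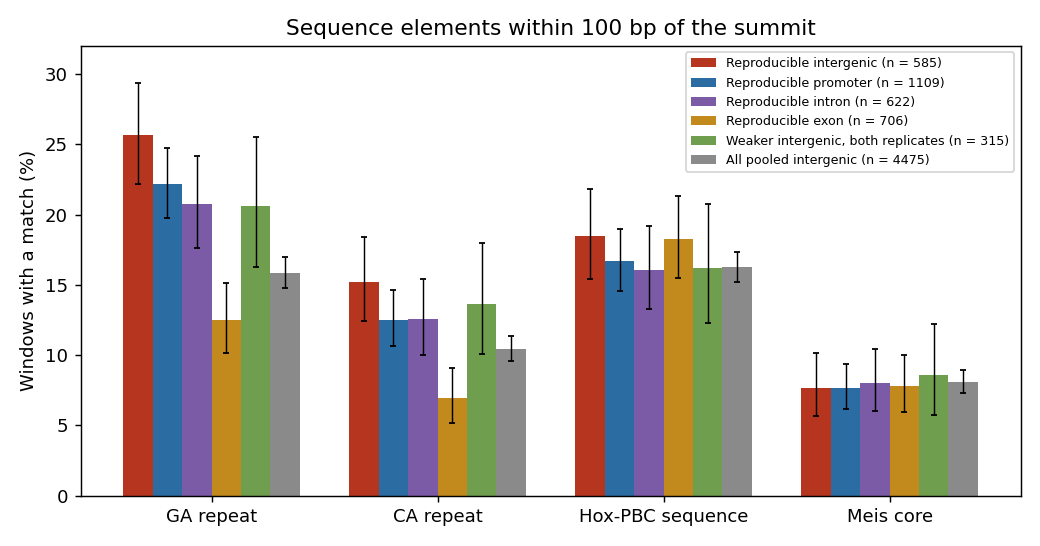
Share of 201 bp windows (%, y axis) with a match of each sequence element on either strand, for the 585 reproducible intergenic regions (red), other reproducible classes, weaker intergenic peaks and all intergenic peaks. GA repeat is GAGAGA, CA repeat ACACAC, Hox-PBC sequence TGATNNAT and Meis core TGACAG, and bars carry 95% exact intervals. The GA repeat share of the 585 regions, 25.6%, stands above that of all intergenic peaks, 15.9%, and the Meis core shares of the 6 sets drawn lie between 7.66% and 8.57%.

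**Figure D5:**
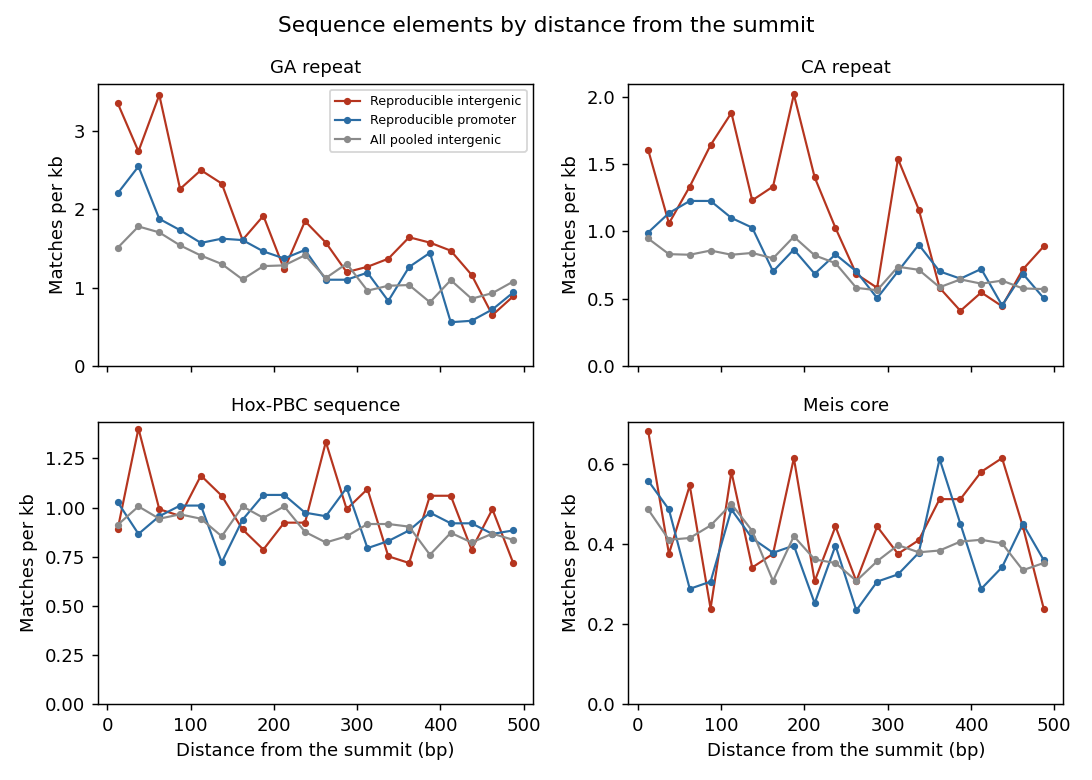
Matches per kb (y axis) of each element by distance from the summit in bins of 25 bp (x axis), for the 585 reproducible intergenic regions (red), reproducible promoter peaks (blue) and all intergenic peaks (grey). The GA repeat is denser near the summit in all 3 sets, 2.95 per kb within 100 bp in the 585, and the Meis core is at 0.462 per kb within 100 bp, with its highest bin, 0.684 per kb from 20 matches, at 0 to 25 bp.

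The other 3 sequences counted stand for splice acceptors, E-boxes and GATA sites. TTTCAG, the worm's splice acceptor sequence, occurred in 22.4% of the 585 windows (19.1 to 25.99), against 28.5% of all intergenic peaks and 30.1% of promoter peaks. In X intergenic peaks chosen in the same way it occurred in 23.2% (51 of 220), inside that interval. CACGTG, an E-box, occurred in 5.98% (35 windows, 4.202 to 8.22), against 4.11% of all and 3.88% of promoter peaks. It occurred in 4.44% of weaker intergenic and 4.80% of all reproducible autosomal peaks, both inside that interval. TGATAA, the core of GATA factor sites, occurred in 20.3% (17.2 to 23.8), against 17.9% of all. Shares depend on the window: over 50 bp to either side of the summit TGACAG occurred in 4.10% and GAGAGA in 15.2% of the 585, and over the whole peak in 15.2% and 39.7%. A match is a description of letters in a window and does not show binding there.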

How the data were processed

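UNC-62 ChIP-seq peak lists from 2 biological replicates of whole L4 larvae, with 1 technical replicate each, were analysed as 1 group. Lists were deposited in narrowPeak format, and the signal value of each peak, in column 7, is the authors' own. Per the deposited readme texts, lists were made per replicate and from both pooled, against a control that was not analysed here. How reads were aligned and peaks called, and at which IDR cutoff, is not given in the sources used here. Depth is unknown. There were 0 columns of other samples.

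Summits were annotated with Ensembl release 115 genes of WBcel235, the build of the ce11 lists. Non-coding genes were counted within 500 bp and sequences within 100 bp of the summit, overlapping matches included, on the RefSeq WBcel235 genome. For each region, the strongest overlapping peak of each replicate was used. Shares carry 95% exact Clopper-Pearson intervals over peaks. No test was made: there is 1 group, and peaks are not replicates. Members and gene lists were chosen with earlier results of these data known. Regions were named by rule: the 25 of highest signal and, in part only to keep the text short, up to 5 per gene list, members of clusters, those farthest from a start, those at the threshold, the best rank in each replicate and those with both Meis core and Hox-PBC sequences. Regions named for small RNA genes, for the most GAGAGA matches or for uneven ranks were chosen after their values were seen. Overlap, annotation and sequence counts were checked on simulated data. Alternatives covered thresholds, overlap, annotation, windows and single replicates. Tables were handled with pandas 2.3.3 and NumPy 2.4.6 under Python 3.11.15, intervals came from SciPy 1.17.1, and figures from matplotlib 3.10.9.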

Additional observations from a re-analysis of the deposited data

How the results depend on the processing

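The settings moved counts and shares as follows. With a signal threshold of 20 there were 179 regions, 7.82% in the IDR list, 13.4% between convergent genes, 19.6% with ACACAC and 34.1% with GAGAGA, and the correlation of replicate signals turned to -0.0449, against 0.126 at 14. Leaving out a replicate gave 772 to 887 regions. Promoters widened to 2000 bp before and 500 bp after a start left 404 regions and put 12.9% between convergent genes. With sequence within 50 bp of the summit the shares were 15.2% for GAGAGA, 6.84% for ACACAC, 4.10% for TGACAG and 9.23% for TGATNNAT, and over the whole peak 39.7%, 25.98%, 15.2% and 30.3%, since the window's length sets such shares. Pearson's r of log2 signals was 0.29. The causes of the other shifts were not tested. Of 72 values over 9 results, 55 stayed within 1.5 times the count or within the interval of the value reported, 16 moved and 1 turned sign. Among those that stayed were the 4023 reproducible autosomal peaks of the ce10 lists, against 3105 in ce11. Keeping only the strongest of overlapping regions, an alternative chosen after seeing the data, left 555 and moved no share out of its interval. No paired analysis was possible because there is 1 group. With 2 replicates and unknown depth, no region's signal has an error, and a region absent from a replicate list may be below its limit.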
